A study of Mus musculus with 43 samples.

Results

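The genes described here encode laminin chains and a collagen that holds epithelial cells to their basement membrane. The 8 genes Lama1, Lama3, Lama5, Lamb1, Lamb2, Lamb3, Lamc1 and Col17a1 were taken by symbol, and all 8 were found among the 23951 genes of each bulk expression table and among the 54307 gene rows of each single-cell library. Laminins are secreted trimers of 1 alpha, 1 beta and 1 gamma chain that polymerise into the sheet on which epithelial cells sit. Lama3 and Lamb3 chains are part of the laminin ligand of hemidesmosomes, the anchoring junctions of epithelia, which is bound there by the integrin of the Itga6 and Itgb4 chains beside collagen XVII, the transmembrane product of Col17a1. Lama5 pairs with Lamb1 or Lamb2 and Lamc1 in the basement membrane of the adult intestine, and Lama1 is the alpha chain of many embryonic basement membranes.

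The study asked how transforming growth factor beta 1 (TGFB1) and irradiation change regenerating mouse intestinal epithelium. Bulk RNA was sequenced from primary intestinal organoids of wild-type C57BL/6 mice, which are epithelial cultures, in 6 groups of 3 libraries. The groups were organoids without irradiation (non-IR) collected on day 7, organoids that received 4 Gy on day 4 (IR) and were collected on day 7, and organoids with the same irradiation that were left until day 11. Each condition had vehicle or 2 ng/mL TGFB1 added on day 6 for 24 h, so the day 11 organoids were collected after the treatment had ended. Single cells were profiled from irradiated wild-type C57BL/6 organoids on day 8, after 24 h of vehicle (called 0 h) or after 6, 15 or 24 h of 1 ng/mL TGFB1, with 1 library each. Ki67-RFP positive crypt cells sorted from Mki67tm1.1Cle/J mice gave 1 library without irradiation and 2 libraries 56 h after 12 Gy to the whole body. The single-cell protocol names Matrigel as the gel around the organoids, a matrix that is itself rich in laminin protein, which RNA does not measure. The reporter and the sort restrict the crypt libraries to cells with an active Mki67 reporter, and the mesh that crypts passed was wider for the irradiated mice than for the control.

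Bulk values are FPKM (fragments scaled to transcript length and library size), with no read depth given. The single-cell libraries kept 699 to 4283 cells, with a median of 6709 to 14399 unique molecular identifiers (UMIs) per cell. All 7 epithelial markers had a mean over 1 FPKM in every bulk group, whereas the 10 mesenchymal markers summed to 0.497 to 4.89 FPKM over all libraries. Of these, Lum was at 0 in 5 of the 6 groups and Acta2 reached a mean of 3.22 FPKM with TGFB1 on day 7 after irradiation. On day 7 without irradiation the 6 immune markers summed to 9.52 to 11.4 FPKM with vehicle and 22.0 to 24.1 FPKM with TGFB1, where Cd68 had a mean of 21.8 FPKM. Markers of other states moved with TGFB1: the 8 regenerative markers summed to 231 to 362 FPKM in vehicle libraries and 2562 to 5330 FPKM in TGFB1 libraries, and the mesenchymal sum was 0.682 to 0.884 FPKM with vehicle and 3.23 to 4.89 FPKM with TGFB1 on day 7 after irradiation. The 7 epithelial markers summed to 5830 to 6012 FPKM in day 7 vehicle libraries and 13864 to 15400 FPKM in day 7 TGFB1 libraries, and on day 11 to 5186 to 6337 FPKM and 6967 to 7656 FPKM. Proliferation markers summed to 387 to 392 FPKM with vehicle and 321 to 334 FPKM with TGFB1 on day 7 without irradiation, and to 278.6 to 291 FPKM and 96.4 to 113 FPKM after it. Enterocyte markers on day 7 summed to 3159 to 3304 FPKM with vehicle and 1406 to 1523 FPKM with TGFB1 without irradiation, and to 11799 to 12526 FPKM and 17599 to 18471 FPKM after it. The part of any of these in the laminin results was not tested. In bulk samples, more cells of a type and more RNA per cell cannot be told apart. The labels do not say whether libraries of a group came from separate cultures or animals, so p-values measure the spread between these libraries.

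Promoters of Lamb3 and Lama5 are shown because these chains are the most abundant beta chain and the alpha chain that dominated vehicle libraries. The sequences are the 250 bases before an annotated start in RefSeq (build GRCm38.p6), read in the direction of the gene, with each match to a searched motif in capitals.
Lamb3, chr1:193301744-193301993, plus strand: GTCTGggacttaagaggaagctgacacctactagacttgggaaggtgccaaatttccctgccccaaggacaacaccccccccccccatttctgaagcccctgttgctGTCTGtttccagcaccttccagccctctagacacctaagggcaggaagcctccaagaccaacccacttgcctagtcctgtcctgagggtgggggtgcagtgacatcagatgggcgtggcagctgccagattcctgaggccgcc
Lama5, chr2:180225860-180226109, minus strand: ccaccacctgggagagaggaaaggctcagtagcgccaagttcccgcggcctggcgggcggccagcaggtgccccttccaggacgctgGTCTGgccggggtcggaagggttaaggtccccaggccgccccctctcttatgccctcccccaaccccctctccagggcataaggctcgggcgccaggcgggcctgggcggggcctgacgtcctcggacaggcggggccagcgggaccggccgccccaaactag
The motifs searched on both strands were TGANTCA for AP-1, CAGAC for SMAD proteins, which carry the TGFB signal to DNA and whose letters read GTCTG on the opposite strand, and GGAATG for TEAD factors, which reads CATTCC on the opposite strand. The SMAD letters occurred 2 times before this Lamb3 start and 1 time before the Lama5 start, and 42.2% of 32536 RefSeq promoters of that length hold them. The same letters occurred 2 times before the Lamb2 start, 1 time before the Lamb1 start and in no place before the Col17a1 start. A second annotated Lamb3 start had 1 TEAD match, which 12.6% of promoters hold, and no member promoter in the table had an AP-1 match, which 6.73% hold. Promoters on 1 chromosome were left out of the search and of these shares. Among the rest, 5 of the 8 genes had a promoter entry, with 6 starts, and Lama1, Lama3 and Lamc1 had none.

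TGFB1 raised every laminin chain that could be tested in day 7 organoids without irradiation. The change was largest for Lama3, the alpha chain of the hemidesmosome laminin, which went from near the bottom of the measured range to an abundant transcript. Its beta partner Lamb3 rose as well, to 2.81 times the vehicle mean, and Lama5 and Lamc1 rose to 2.60 and 2.16 times. Of the 8 genes, 6 passed the filter of a mean of at least 1 FPKM and all 6 were higher with TGFB1 at a limma adjusted p under 0.05, where 68.2% of the 11330 genes tested were called, 33.3% higher and 34.9% lower. The median log2 change was 1.14 over the 6 genes and -0.02 over all genes tested. Lama3, at a vehicle mean of 0.555 FPKM, passed the filter only through its TGFB1 libraries. It could thus enter this count and median only as a gene higher with TGFB1. Changes are on the scale of log2(FPKM + 1), which understates the change of genes with low values.

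Lama3 was at 0.580, 0.495 and 0.590 FPKM in the 3 vehicle libraries and 52.6, 63.3 and 57.8 FPKM in the 3 TGFB1 libraries. The groups were far apart, with a ratio of means of 104, a log2 change of 5.24 ± 0.07 (SE, n = 3 per group) and a limma adjusted p of 2.52e-12. Lama5, the alpha chain of the resting intestinal basement membrane, was at 5.28, 5.20 and 5.01 FPKM with vehicle and 13.5, 13.6 and 13.2 FPKM with TGFB1. Its libraries did not overlap either, and the log2 change was 1.23 ± 0.05 (SE; limma adjusted p = 3.00e-09). Lama1 was listed at 0 in 5 of the 6 libraries and at 0.00592 FPKM in the other, and was not tested.

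Among the beta chains, Lamb3 was at 48.7, 45.2 and 46.3 FPKM with vehicle and 122, 138 and 134 FPKM with TGFB1. It was thus already abundant without TGFB1, and its log2 change was 1.47 ± 0.05 (SE; limma adjusted p = 9.63e-10). Lamb2 was at 2.79, 2.27 and 2.50 FPKM with vehicle and 4.18, 4.45 and 4.73 FPKM with TGFB1, a log2 change of 0.63 ± 0.08 (SE; limma adjusted p = 2.45e-05). Lamb1 was at 1.10, 0.859 and 1.37 FPKM with vehicle and 1.60, 2.08 and 1.41 FPKM with TGFB1. Its groups were separated by a narrow margin, and the log2 change of 0.36 ± 0.12 (SE; limma adjusted p = 0.0206) missed the threshold without vehicle replicate 2 (adjusted p = 0.0837), without TGFB1 replicate 2 (adjusted p = 0.0841) and after quantile normalization (adjusted p = 0.0846).

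The gamma chain Lamc1 was at 12.4, 12.0 and 12.2 FPKM with vehicle and 25.2, 27.5 and 26.1 FPKM with TGFB1, a log2 change of 1.05 ± 0.04 (SE; limma adjusted p = 6.24e-09). Col17a1 did not exceed 0.0220 FPKM in any of the 6 libraries, and the vehicle and TGFB1 libraries overlapped. RNA for the hemidesmosome's transmembrane collagen was therefore at or near 0 also in the TGFB1 libraries, where Lama3 and Lamb3 RNA was abundant.

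**Figure D1:**
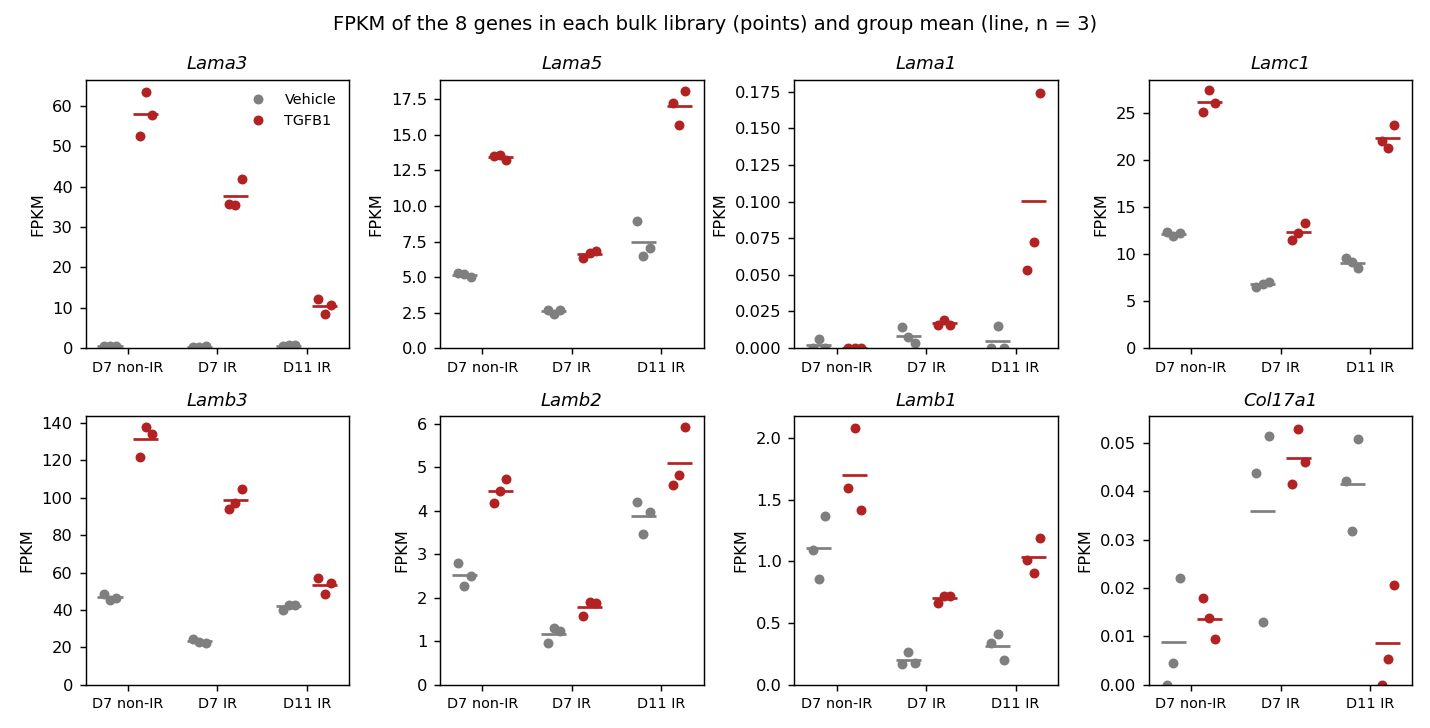
FPKM (vertical axes, a separate linear scale from 0 for each gene) of the 8 genes in the 3 vehicle (grey) and 3 TGFB1 (red) libraries of each bulk condition, with the group mean as a line. Lama3 lies between 0.274 and 0.689 FPKM in the 9 vehicle libraries and between 8.41 and 63.3 FPKM in the 9 TGFB1 libraries, while Lama1 and Col17a1 do not exceed 0.174 FPKM.

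In irradiated organoids on day 7, TGFB1 again raised each tested laminin chain, with Lama3 and Lamb3 in the lead. Of the 8 genes, 5 passed the filter and all 5 were higher by limma, where 75.5% of 11258 genes tested were called, 35.8% higher and 39.7% lower. The median log2 change was 1.09 over the 5 genes and -0.03 over all genes tested. Lama3 again passed the filter only through its TGFB1 libraries, at a vehicle mean of 0.331 FPKM.

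Lama3 was at 0.306, 0.274 and 0.414 FPKM with vehicle and 35.6, 35.5 and 41.9 FPKM with TGFB1, a ratio of means of 114 and a log2 change of 4.86 ± 0.08 (SE; limma adjusted p = 1.75e-11). Lamb3 was at 24.5, 23.1 and 22.4 FPKM with vehicle and 93.7, 97.4 and 105 FPKM with TGFB1, a log2 change of 2.03 ± 0.05 (SE; limma adjusted p = 2.67e-10). In both chains the lowest TGFB1 library was above the highest vehicle library.

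Lama5 was at 2.65, 2.42 and 2.69 FPKM with vehicle and 6.33, 6.71 and 6.86 FPKM with TGFB1, a log2 change of 1.09 ± 0.07 (SE; limma adjusted p = 1.12e-07). Lamc1 was at 6.54, 6.87 and 7.04 FPKM with vehicle and 11.5, 12.2 and 13.4 FPKM with TGFB1, a log2 change of 0.77 ± 0.06 (SE; limma adjusted p = 1.12e-06). Lamb2 was at 0.954, 1.31 and 1.24 FPKM with vehicle and 1.58, 1.90 and 1.88 FPKM with TGFB1, a log2 change of 0.37 ± 0.10 (SE; limma adjusted p = 0.00583). Lama5 and Lamc1 libraries were well separated, and Lamb2 changed least of the 5 tested. Lamb1, below the filter, was at 0.171, 0.269 and 0.174 FPKM with vehicle and 0.666, 0.718 and 0.718 FPKM with TGFB1, without overlap. Lama1 did not exceed 0.0191 FPKM and Col17a1 did not exceed 0.0528 FPKM.

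On day 11, after the 24 h treatment on day 6 had ended, the laminin chains were still higher in TGFB1 organoids, but Lama3 and Lamb3 differed far less from vehicle than on day 7. Of the 8 genes, 5 passed the filter and all 5 were higher by limma, where 63.9% of 11479 genes tested were called, 32.3% higher and 31.6% lower. The median log2 change was 1.10 over the 5 genes and 0.01 over all genes tested. Here too Lama3 passed the filter only through its TGFB1 libraries, at a vehicle mean of 0.625 FPKM.

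Lama3 was at 0.497, 0.688 and 0.689 FPKM with vehicle and 12.2, 8.41 and 10.6 FPKM with TGFB1, a ratio of means of 16.7 and a log2 change of 2.80 ± 0.13 (SE; limma adjusted p = 2.02e-07). Lamb3 was at 40.1, 42.9 and 42.8 FPKM with vehicle and 57.3, 48.6 and 54.5 FPKM with TGFB1, a log2 change of 0.34 ± 0.08 (SE; limma adjusted p = 0.00414). The vehicle and TGFB1 libraries did not overlap for either chain, and for Lamb3 the gap between them was narrow.

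Lama5 was at 8.93, 6.46 and 7.05 FPKM with vehicle and 17.2, 15.7 and 18.1 FPKM with TGFB1, a log2 change of 1.10 ± 0.11 (SE; limma adjusted p = 2.21e-05). Lamc1 was at 9.64, 9.16 and 8.52 FPKM with vehicle and 22.0, 21.3 and 23.8 FPKM with TGFB1, a log2 change of 1.21 ± 0.08 (SE; limma adjusted p = 1.22e-06). Both were separated by more than the spread of either group. Lamb2 was at 4.20, 3.46 and 3.98 FPKM with vehicle and 4.59, 4.82 and 5.92 FPKM with TGFB1, a log2 change of 0.32 ± 0.11 (SE; limma adjusted p = 0.0311). That call was lost without vehicle replicate 2 (adjusted p = 0.112), without vehicle replicate 3 (adjusted p = 0.0501) and without TGFB1 replicate 3 (adjusted p = 0.119). Lamb1 was at 0.338, 0.412 and 0.200 FPKM with vehicle and 1.01, 0.909 and 1.19 FPKM with TGFB1, without overlap, and was below the filter. Lama1 was at 0, 0.0148 and 0 FPKM with vehicle and 0.0533, 0.0725 and 0.174 FPKM with TGFB1, while Col17a1 was at 0.0422, 0.0318 and 0.0508 FPKM with vehicle and 0, 0.00538 and 0.0206 FPKM with TGFB1. Neither pair of groups overlapped, but both genes were far below the filter and were not tested.

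**Figure D2:**
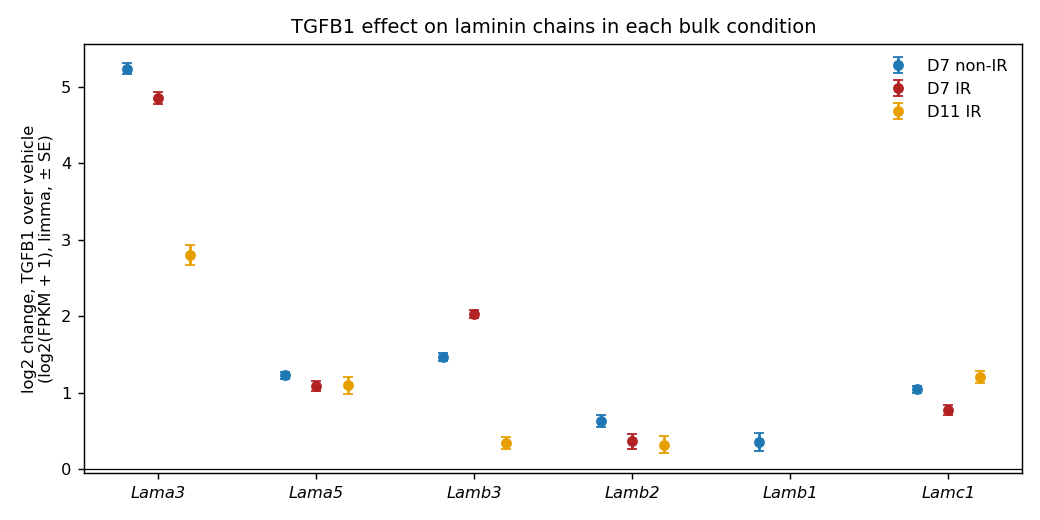
Log2 change of TGFB1 over vehicle (vertical axis, log2(FPKM + 1) scale, limma, bars ± SE, 3 libraries per group) for each laminin chain that passed the filter, by bulk condition. Lama3 changes by 5.24 on day 7 without irradiation, 4.86 on day 7 after irradiation and 2.80 on day 11, whereas Lama5 stays between 1.09 and 1.23.

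The size of the TGFB1 change was then compared between conditions as an interaction, the difference between 2 log2 changes each taken within its own table. Between irradiated and non-irradiated organoids on day 7, Lamb3 changed more after irradiation and Lamc1 changed less. Lamb3 differed by 0.56 ± 0.07 (SE; limma adjusted p = 2.09e-05). Lamc1 differed by -0.28 ± 0.08 (SE; limma adjusted p = 0.00764). Lama3 differed by -0.38 ± 0.11 (SE; limma adjusted p = 0.00855), but with a pseudocount of 0.1 FPKM in place of 1 FPKM the difference was -0.01 (limma adjusted p = 0.982), and the ratio of means was no smaller after irradiation (114 against 104). Lama5 differed by -0.14 ± 0.07 (SE; adjusted p = 0.125) and Lamb2 by -0.27 ± 0.12 (SE; adjusted p = 0.0742), neither past the threshold in limma. With quantile normalization both passed it (adjusted p = 0.0268 and 0.0311), and Lamb2 also passed it without non-irradiated vehicle replicate 1 (adjusted p = 0.0459) or irradiated vehicle replicate 1 (adjusted p = 0.0268). Of 5 genes tested, 1 was called higher and 2 lower, where 53.1% of 11411 genes were called, 25.3% higher and 27.8% lower.

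Between day 11 and day 7 after irradiation, Lama3 and Lamb3 parted from the other chains. The change was smaller on day 11 for Lama3, by -2.06 ± 0.16 (SE; limma adjusted p = 1.19e-07), and for Lamb3, by -1.69 ± 0.09 (SE; limma adjusted p = 6.11e-09). It was larger on day 11 for Lamc1, by 0.44 ± 0.10 (SE; limma adjusted p = 0.00159). No difference was detected for Lama5 at 0.01 ± 0.13 (SE; limma adjusted p = 0.969) or Lamb2 at -0.05 ± 0.15 (SE; limma adjusted p = 0.804). Of 5 genes tested, 1 was called higher and 2 lower, where 64.5% of 11456 genes were called, 31.5% higher and 33% lower. Both interactions use the day 7 irradiated libraries, so they are not independent of each other.

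The levels themselves are set side by side across conditions without a test, because the 3 tables were normalized separately. In vehicle organoids on day 7, each of the 6 laminin chains among the 8 genes with a mean over 0.1 FPKM was lower after irradiation than without it, with no overlap of libraries. Of all 11235 genes that passed the filter, 44.3% were lower without overlap and 40.7% higher, so a lack of overlap alone is common between these tables. The ratio of the irradiated to the non-irradiated mean was 0.597 for Lama3, 0.501 for Lama5, 0.184 for Lamb1, 0.463 for Lamb2, 0.4995 for Lamb3 and 0.560 for Lamc1. Of the 4 that passed the filter, 2 were at least 2-fold lower without overlap, as were 10.6% of 11235 genes, while 9.87% were higher by the same rule. The count was 0 to 3 under other settings. Enterocyte markers summed to 3159 to 3304 FPKM without irradiation and 11799 to 12526 FPKM after it in these vehicle libraries, Paneth markers to 10194 to 10404 and 4527 to 5210 FPKM, and goblet markers to 6275 to 6638 and 2571 to 2618 FPKM, and their part in the ratios was not tested. The same 6 chains were also lower after irradiation among TGFB1 organoids, with ratios from 0.401 for Lamb2 to 0.751 for Lamb3. There 4 of 6 were at least 2-fold lower without overlap, against 12.8% of 11403 genes lower and 11.6% higher by that rule. Lamb1 is among the 4, with means of 0.701 FPKM after irradiation and 1.70 FPKM without it. It passed the filter only through the non-irradiated libraries, so it could be counted only as lower.

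From day 7 to day 11 after irradiation, Lama5 and Lamb2 were higher on day 11 with either treatment. With vehicle the day 11 mean was 2.89 times the day 7 mean for Lama5 and 3.33 times for Lamb2, the only 2 of 4 genes past the filter that were at least 2-fold higher without overlap, against 6.06% of 11264 genes higher and 4.2% lower. With TGFB1, Lama5 and Lamb2 were again at least 2-fold higher, at 2.57 and 2.86 times, whereas Lama3 was at 0.277 times its day 7 mean and was the 1 gene at least 2-fold lower. Lamb3 was at 0.543 times the day 7 mean, without overlap. Among all 11381 genes, 8.91% were higher and 10.1% lower by that rule.

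FPKM is a value per length, so the levels of the chains can be compared with each other. In vehicle libraries Lama5 made up 89.9% ± 1.0 (SD, n = 3) of alpha chain FPKM on day 7 without irradiation, 88.1% ± 1.5 after irradiation and 91.8% ± 2.4 on day 11. With TGFB1 the share of Lama3 was 81.1% ± 1.4 (SD, n = 3) on day 7 without irradiation, 84.9% ± 0.92 after irradiation and 37.6% ± 3.4 on day 11. The dominant alpha chain transcript was therefore Lama3 in day 7 TGFB1 libraries and Lama5 in all other groups. Lamb3 held 89.7% to 97.5% of beta chain FPKM in every group. In order of mean FPKM among the 8 genes, vehicle groups ran Lamb3, Lamc1, Lama5, Lamb2, and the libraries of neighbours in that order did not overlap on day 7, while Lamc1 and Lama5 overlapped on day 11.

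**Figure D3:**
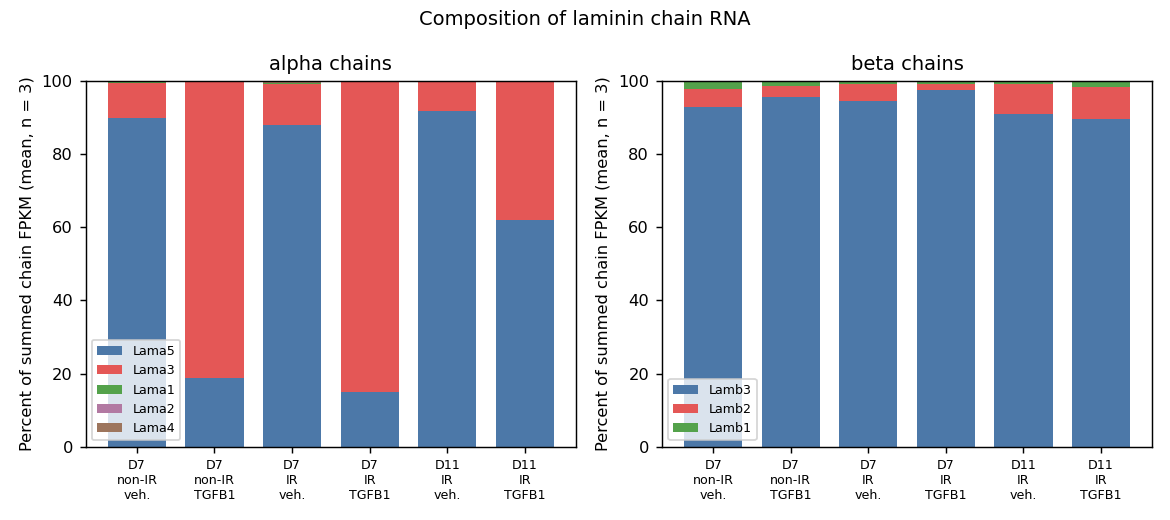
Percent of the summed FPKM of alpha and beta laminin chains (vertical axis, mean of 3 libraries) held by each gene in the 6 bulk groups. Lama3 goes from 9.67% of alpha chain FPKM with vehicle to 81.1% with TGFB1 on day 7 without irradiation, while Lamb3 holds at least 89.7% of beta chain FPKM throughout.

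Genes whose levels followed Lama3 or Lamb3 were ranked by correlation of log2(FPKM + 1) over the 18 libraries, among 11473 genes. Closest to Lama3 were Tnfrsf11b (Pearson r = 0.995), which encodes a decoy receptor of the TNF family, Aldh1a3 (r = 0.994), which encodes an enzyme of retinoic acid synthesis, and Serpina9 (r = 0.993). Closest to Lamb3 were F3 (r = 0.990), which encodes tissue factor, Fosl2 (r = 0.988), which encodes an AP-1 subunit, and Arhgef40 (r = 0.987). Among the chains, Lama3 correlated with Lamb3 at r = 0.917, but with Lamb2 at r = 0.326. Lama5 correlated with Lamb2 at r = 0.903 and with Lamc1 at r = 0.901. The points share tables and treatment groups, so these are descriptions. Col17a1 was too low to rank.

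The receptors and other parts of the basement membrane were read from lists of related genes. All 11 hemidesmosome and laminin receptor genes passed the filter in each condition. On day 7, 10 of 11 were higher with TGFB1 and 1 lower, with and without irradiation, and on day 11 the counts were 6 higher and 1 lower. Over all genes tested, 33.3% were higher and 34.9% lower on day 7 without irradiation, 35.8% and 39.7% after irradiation, and 32.3% and 31.6% on day 11, and the same shares stand behind the counts of the next lists. Without irradiation Plec, which encodes the plectin that ties hemidesmosomes to keratin, changed by 1.65 ± 0.05 and Itgb4, the beta chain of the hemidesmosome integrin, by 1.26 ± 0.04 (log2, SE). After irradiation they changed by 1.56 ± 0.04 and 1.20 ± 0.04. On day 11 the largest changes in the list were those of Itga3, at 0.92 ± 0.11, and Itga6, at 0.67 ± 0.10, both alpha chains of laminin-binding integrins.

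Of 18 other basement membrane genes, 5 passed the filter without irradiation, 4 higher and 1 lower. After irradiation 9 passed, with 5 higher and 3 lower on day 7 and 6 higher and 1 lower on day 11. Col18a1, with vehicle means of 0.475 to 0.509 FPKM, passed only through TGFB1 libraries in all 3 conditions. So did Nid1 after irradiation, at vehicle means of 0.954 FPKM on day 7 and 0.369 FPKM on day 11. On day 11 the same held for Col4a1 and Col4a2, at 0.682 and 0.741 FPKM with vehicle. Hspg2 and Ntn4 passed only through vehicle libraries on day 7 after irradiation. Hspg2 was at 4.70 FPKM with vehicle and 0.574 FPKM with TGFB1, and Ntn4 at 2.57 and 0.495 FPKM. Col18a1, the collagen that endostatin is cut from, changed by 1.83 ± 0.09 without irradiation and 2.01 ± 0.08 after irradiation on day 7. Npnt, which encodes the integrin ligand nephronectin, changed by 1.68 ± 0.06, 2.04 ± 0.06 and 2.63 ± 0.10 in the 3 conditions in that order, and on day 11 Col4a2, a chain of the main basement membrane collagen, changed by 2.65 ± 0.15. Of 8 genes that process laminins or collagen XVII, 5 passed the filter, with 4 higher and 0 lower, 4 higher and 1 lower, and 5 higher and 0 lower. Bmp1, a protease that trims laminin chains, changed by 1.12 ± 0.07 and 1.92 ± 0.07 on day 7 without and after irradiation, and Mmp14, a membrane protease, by 1.08 ± 0.05 and 1.31 ± 0.05. On day 11 the largest changes there were those of Adam9, at 1.23 ± 0.08, and Mmp14, at 0.97 ± 0.09. Of 6 integrin adaptors, 5 passed the filter and 5, 5 and 4 were higher, with Vcl, which encodes vinculin, at 0.82 ± 0.04, 1.35 ± 0.04 and 0.95 ± 0.07, and Fermt1, which encodes kindlin-1, at 0.89 ± 0.04, 1.02 ± 0.04 and 0.63 ± 0.09 (log2, SE).

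Single-cell libraries of irradiated day 8 organoids placed the laminin chains on a time scale of hours. Lama3 RNA was nearly absent without TGFB1 and present after 6 h, and continued to increase to 24 h. Lamb3 increased over the same times, whereas no increase was detected for Lama5 from 0 h to 6 h or for Lamc1 from 0 h to 15 h. With 1 library per time there is no test of time, and the intervals given here are exact Poisson intervals that cover counting error only.

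Lama3 had 2 UMIs at 0 h (0.0731 CPM, counts scaled to 1e+06 per library) and was at 4.59, 15.8 and 26.1 CPM at 6, 15 and 24 h. The 6 h level was 62.8 times the 0 h level (95% interval 17.1 to 524) and the 24 h level was 356 times it (95% interval 98.3 to 2947). Among the 15388 genes with at least 50 UMIs, 3.67% passed a 2-fold limit upward and 1.45% downward from 0 h to 6 h, and 10.9% and 4.29% from 0 h to 24 h. Of the 8 genes described, 5 were among those, of which Lama3 passed it upward at 6 h and Lama3, Lama5 and Lamb3 at 24 h. With 2 UMIs at 0 h, Lama3 reached 50 UMIs only through the TGFB1 libraries. From 0 h to 15 h Lama3 and Lamb3 passed it, where 6.23% of genes did so upward and 1.79% downward. Between neighbouring times Lama3, Lama5 and Lamb3 passed it upward from 6 h to 15 h (3.59% of genes upward, 0.975% downward), and none of the 5 passed it from 15 h to 24 h (4.2% upward, 3.47% downward).

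Lamb3 was at 24.8, 33.3, 66.7 and 84.6 CPM at 0, 6, 15 and 24 h, 3.41 times as high at the end as at the start (95% interval 3.13 to 3.72). Lama5 was at 4.46, 4.26, 8.74 and 13.6 CPM, a ratio of 3.04 (95% interval 2.48 to 3.75), and between 0 h and 6 h its interval of 0.742 to 1.23 spans 1. Lamc1 was at 7.46, 8.45, 8.93 and 13.5 CPM, a ratio of 1.80 (95% interval 1.52 to 2.14). From 0 h to 15 h its ratio was 1.20 (95% interval 0.989 to 1.45). Lamb2 was the exception, at 2.12, 1.20, 1.29 and 1.99 CPM. The ratio of 6 h to 0 h was 0.567 (95% interval 0.368 to 0.866), with overlapping intervals of the 2 levels, and from 0 h to 24 h no difference was detectable at this depth (ratio 0.939, 95% interval 0.645 to 1.37).

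Lamb1 had 1, 0, 2 and 10 UMIs at the 4 times, and Lama1 had 0, 0, 0 and 6 UMIs. Col17a1 had no UMI in any of the 7 single-cell libraries, which in the organoid libraries allows a level of up to 0.0925 to 0.114 CPM. The share of cells with a Lama3 UMI after thinning each cell to 2000 UMIs was 0 of 2931 cells at 0 h, which allows a share of up to 0.102%, and 0.678%, 2.18% and 4.46% at 6, 15 and 24 h. Without thinning it was 2, 99, 226 and 328 cells of 2932, 4283, 2890 and 2218. The 24 h library also held most of the cells of a cluster led by 7SK and other small RNAs, 431 of 569. Without that cluster Lamb3 was at 89.0 CPM at 24 h, and no other laminin value moved beyond its counting interval. The summed regenerative markers went from 139 to 179, 535 and 1119 CPM over the 4 times, and the median mitochondrial percent was 2.95, 3.24, 4.34 and 4.85, and their part in the time course was not tested.

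**Figure D4:**
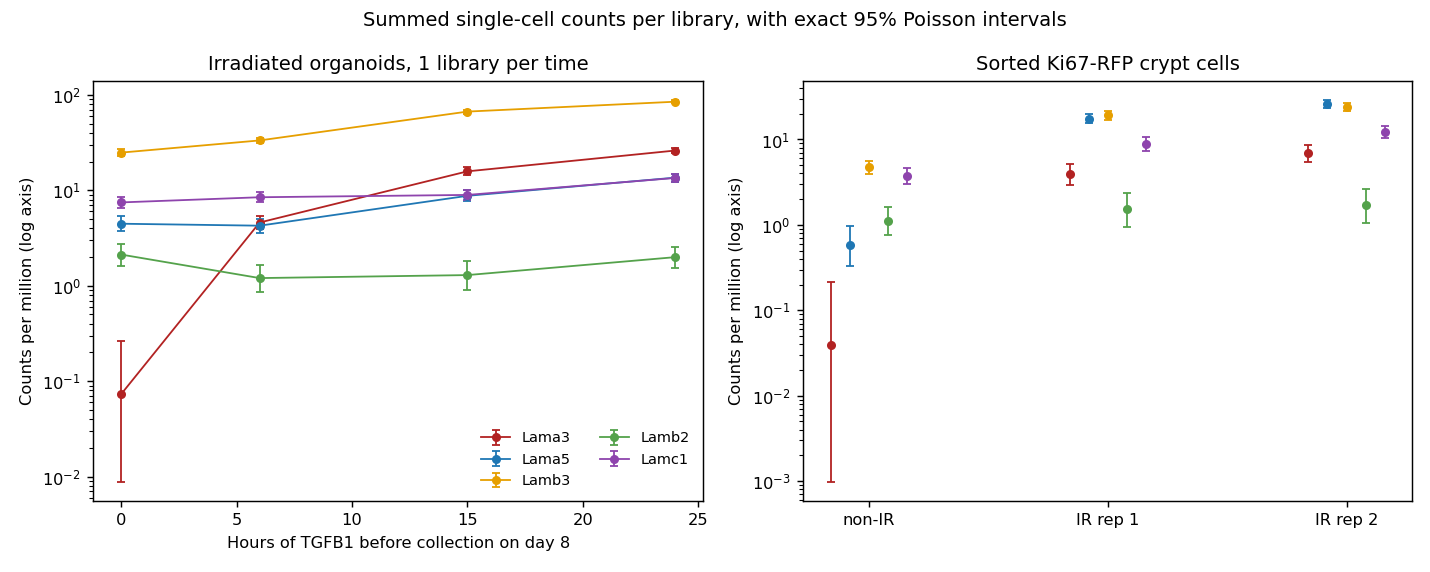
CPM of summed single-cell counts (vertical axes, log scale) of 5 laminin chains, by hours of TGFB1 in 4 organoid libraries (left) and in 3 Ki67-RFP crypt libraries (right), with exact 95% Poisson intervals. Lama3 goes from 0.0731 CPM at 0 h to 26.1 CPM at 24 h, and from 0.0388 CPM in the crypt cells without irradiation to 3.93 and 6.89 CPM after it.

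Within the organoids, laminin RNA was unevenly spread over cells. Cells were clustered without the laminin and related genes, and clusters were called by their leading genes or by markers. Of all Lama3 UMIs, 44.6% lay in cluster 8, a regenerative-like cluster led by Ada, Tm4sf4 and Anxa10 that held 4.43% of cells. Lama3 was at 97.6 CPM there (95% interval 90.0 to 106), 20.2 CPM in an unnamed cluster led by Thbs1, Cym and Clu (cluster 2), 21.2 CPM in one led by Myl7, Dmbt1 and S100a6 (cluster 6), and 1.13 CPM in enterocyte-like cells. Lamb3 was broader, at 143 CPM in cluster 8, 127 CPM in cluster 2 and 110 CPM in goblet-like cells, whose leading genes also include the hormone Cck and the granule proteins Chga and Chgb. Lama5 was at 23.6 CPM in cluster 2 (95% interval 21.1 to 26.2) and 16.4 CPM in cluster 8 (13.4 to 19.9) over the summed libraries, in which the clusters have different shares of each time. By time it was at 17.4, 13.9, 19.4 and 29.0 CPM in cluster 2 and 11.1, 9.99, 22.0 and 18.6 CPM in cluster 8, and the intervals of these 2 clusters overlapped at 0, 6 and 15 h and not at 24 h. CPM values are compared here between clusters for each gene, and not between genes.

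By time, the values of the clusters were as follows. In cluster 8, Lama3 had 1 UMI at 0 h among 114 cells and was at 55.3, 133 and 143 CPM at 6, 15 and 24 h. In cluster 2 it was at 0, 4.62, 13.3 and 30.1 CPM and in cluster 6 at 0, 7.64, 24.6 and 44.9 CPM. Lama3 thus appeared in several clusters. Cluster 8 may hold different cells at different times. At a Leiden resolution of 1, an unnamed cluster led by Ada and Tm4sf4 consisted of 107, 162, 108 and 88 cells at the 4 times, with Lama3 at 0.998, 16.1, 55.3 and 65.6 CPM. A separate regenerative-like cluster had 10, 26, 106 and 178 cells, with Lama3 at 0, 198, 152 and 117 CPM.

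At 24 h, in cells thinned to 2000 UMIs, Lamb3 was detected in 27.3% of 99 cells with a Lama3 UMI (exact 95% binomial interval 18.8 to 37.1) and in 13.6% of 2119 cells without one (12.2 to 15.2). For Lama5 the counts at 24 h were 1 of 99 cells against 68 of 2119, with overlapping intervals, so no difference was detected at that time. At 15 h the Lama5 counts were 6 of 63 cells (9.52%, 3.58 to 19.6) against 40 of 2827 (1.41%, 1.01 to 1.92). Lamb3 at 15 h was detected in 38.1% of cells with a Lama3 UMI (26.1 to 51.2) and 11.2% without one (10.1 to 12.4). Lama3 was detected in 7.49% of cells with a UMI of Clu, a marker of regenerating crypts, and in 2.31% of cells without one. It was detected in 3.13% of cells with a UMI of the proliferation marker Mki67 and 4.57% of cells without one, with overlapping intervals. Cells of 1 library are not replicates, so these shares describe that library. Free RNA in the suspension can give a UMI in a cell that does not express the gene: at 24 h Lama3 was at 3.42 CPM in enterocyte-like cells (95% Poisson interval 1.64 to 6.30) and 143 CPM in cluster 8, whose median depths over the 4 libraries were 6832 and 8446 UMIs per cell.

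**Figure D5:**
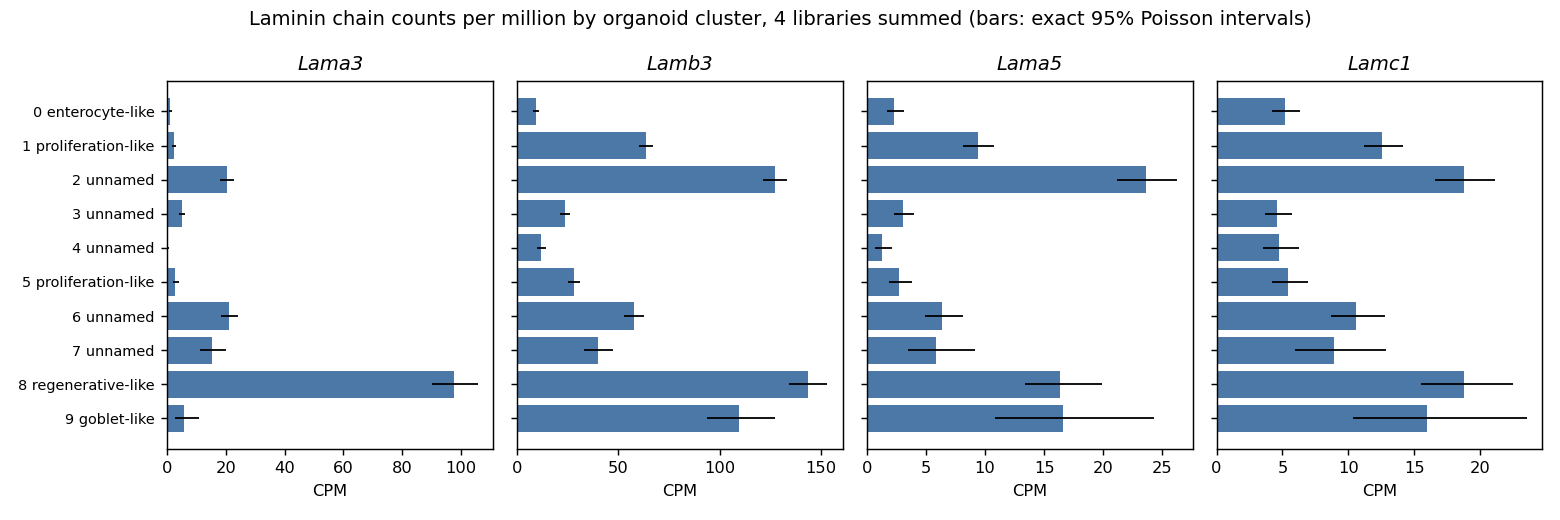
CPM (horizontal axes, linear from 0) of 4 laminin chains in the 10 organoid clusters, with the 4 libraries summed and exact 95% Poisson intervals as bars. Lama3 peaks in cluster 8 at 97.6 CPM, while Lama5 peaks in cluster 2 at 23.6 CPM.

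In Ki67-RFP positive crypt cells from mice, several of these chains had higher values in the 2 libraries taken 56 h after 12 Gy than in the 1 control library, without any added TGFB1. Lama3 and Lama5 were almost undetected in the control library and were present in both irradiated libraries, and Lamb3 and Lamc1 were higher as well. Of the 8 genes, 5 passed the filter and 4 were higher by edgeR's quasi-likelihood test, where 31.8% of 16260 genes tested were called, 16% higher and 15.7% lower. The control is a single library, so the test takes its spread from the 2 irradiated libraries and the control is assumed to vary like them. Lama3 and Lama5, with 1 and 15 UMIs in the control, entered the test only through the irradiated libraries. A lower call was thus not possible for either of these alpha chains.

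Lama3 had 1 UMI (0.0388 CPM) without irradiation and was at 3.93 and 6.89 CPM in the 2 irradiated libraries, with an edgeR log2 change of 6.71 (adjusted p = 2.84e-04) that depends on the prior count. Lama5 was at 0.582, 17.5 and 25.9 CPM, a log2 change of 5.03 (edgeR adjusted p = 3.44e-05). Both alpha chains were thus higher in each irradiated library than in the control. Lamb3 was at 4.73, 19.1 and 24.2 CPM, a log2 change of 2.01 (edgeR adjusted p = 2.85e-04), and Lamc1 at 3.76, 8.88 and 12.2 CPM, a log2 change of 1.31 (edgeR adjusted p = 0.00729). Lamb2, at 1.13, 1.53 and 1.70 CPM, was not called (log2 change 0.34, edgeR adjusted p = 0.604). Lamb1 had 1, 4 and 7 UMIs and Lama1 and Col17a1 had none.

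Of the 11 receptor genes, 5 were higher and 2 lower in irradiated crypt cells, where 16% of all genes tested were higher and 15.7% lower, with Bcam, which encodes a receptor for laminin alpha 5, at a log2 change of 1.99 and Itgb4 at 1.78. Among 9 other basement membrane genes tested, the largest log2 changes were those of Npnt, at 3.44, and Ntn4, which encodes the laminin-related netrin-4, at -4.58. Npnt, at 0.310 CPM in the control, entered the test only through the irradiated libraries. Ntn4, at 0.218 and 0.243 CPM in the irradiated libraries, entered it only through the control. The filter thus fixed the direction of both changes. Of 5 processing genes and 5 adaptors tested, Mmp14, at 1.13, and the adaptors Ptk2, at 0.62, and Fermt1, at 0.60, were higher. The summed regenerative markers were at 55.0 CPM in the control and 459 and 584 CPM in the irradiated libraries, and the 5 endothelial markers at 6.84, 11.6 and 12.7 CPM. Enterocyte markers were at 2766, 574 and 1699 CPM in that order, Paneth markers at 2566, 779 and 951 CPM and stem markers at 2186, 1373 and 898 CPM, and the part of any of these in the laminin values was not tested. The 6 largest clusters each held cells of the control only or of the irradiated libraries only, and the 4 shared clusters were small, with 8 to 125 cells, so the chains were not compared within clusters. The sorted cells and the organoids differ in dose, time, source and agent, and no test between them was made.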

How the data were processed

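Bulk RNA-seq of 18 organoid libraries and single-cell RNA-seq of 7 libraries were used, and the ATAC-seq lists were not used here. The bulk values are FPKM deposited by the authors in 3 tables, one per condition, each with its own normalization. The single-cell values are estimated counts (UMIs, with fractions where a read fits several genes) deposited by the authors for each barcode. Per the submitters' processing notes, the tools include TopHat2 2.1.0, Cuffnorm and Cuffdiff 2.2.1, STAR 2.7.10a with STARsolo and Salmon 1.4, and the builds mm9 and mm39, with no role given for any of them.

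FPKM were tested as log2(FPKM + 1) with limma 3.58.1 in R 4.3.3 on genes whose mean reached 1 FPKM, within each table, with Benjamini-Hochberg adjustment over all genes tested. Interactions used both tables of a pair. Levels across tables have no test. No read depth follows from FPKM.

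Cells were kept from 500 UMIs and 250 genes upward, if mitochondrial UMIs made up 20% or less, and no doublet caller was run. At most 1 barcode was shared between any pair of libraries. Cells were clustered with scanpy 1.11.5 and Leiden (resolution 0.6; 2000 variable genes, 30 components, 15 neighbours) without the genes of the laminin lists, and rules for naming clusters were set after the data were seen. Crypt counts were summed per library, rounded and tested with edgeR 4.0.16 quasi-likelihood, with DESeq2 1.42.0 as an alternative. Poisson and binomial intervals are exact, at 95%. The fits were tested on simulated data with 200 changed genes.

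The genes named are the 8 genes, at most 2 genes per related list and comparison by the size of the change among those called, the 3 most alike genes and Clu and Mki67. Basement membrane genes that passed the filter only through vehicle or only through TGFB1 libraries are named as well. Some results are not reported here. The genes leading clusters and the single mesenchymal and immune marker genes were named after their values were seen. The genes and lists were chosen with earlier results of these data known. Alternatives were another pseudocount (0.1 FPKM), filter (5 FPKM), scaling, a 2-fold criterion, a replicate block, each library left out, thinning to 1000 in place of 2000 UMIs and Leiden resolution 1.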

Additional observations from a re-analysis of the deposited data

Results flagged for a closer look

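The TGFB1 change of 3 of the 5 laminin chains tested differed between irradiated and non-irradiated organoids on day 7 by an interaction term in limma, where 53.1% of 11411 genes were called. The difference in log2 change was 0.56 for Lamb3, -0.28 for Lamc1 and -0.38 for Lama3, and that of Lama3 was -0.01 with a pseudocount of 0.1 FPKM. The TGFB1 change of the same 3 chains differed between day 11 and day 7 after irradiation, by -2.06 for Lama3, -1.69 for Lamb3 and 0.44 for Lamc1. There 64.5% of 11456 genes were called, so both counts of 3 are near the share over all genes. The causes were not tested.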

How the results depend on the processing

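With a 2-fold criterion added to the adjusted p, TGFB1 raised 625 and lowered 331 genes on day 7 without irradiation, 877 and 607 after irradiation and 651 and 923 on day 11, with 3 of the 8 genes higher in each irradiated condition. Under it the irradiation interaction had 289 genes higher and 211 lower, with 0 of the 8 either way (1 higher and 2 lower at an adjusted p alone), and the day interaction had 783 and 1097, with 0 of the 8 higher. A filter of 5 FPKM left 3 of the 8 higher on day 7 after irradiation, since fewer genes were tested. In the irradiation interaction, 1 of the 8 was lower with a pseudocount of 0.1 FPKM and 4 with quantile normalization. Among vehicle levels on day 7, the number at least 2-fold lower after irradiation was 1 with median-ratio scaling or quantile normalization, 0 with a pseudocount of 1 FPKM, and 1 to 3 with a library left out; among TGFB1 levels it was 1 with that pseudocount. In crypt cells DESeq2 called 1558 genes higher and 1472 lower, against 2605 and 2559 by edgeR. Without the cluster of small RNAs, an alternative chosen after seeing the data, Lamb3 was at 89.0 CPM at 24 h. The day interaction of Lama5 was -0.14 with a pseudocount of 0.1 FPKM and -0.0803 to 0.126 with a library left out, and that of Lamb2 was 0.0534 with quantile normalization and -0.138 to 0.0275 with a library left out, with no call in any of these. The cause of each other shift was not tested.

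With a replicate block, 6, 5 and 5 of the 8 genes were higher with TGFB1 in the 3 conditions, and 1 was higher and 2 lower in each interaction, so the block changed no count of calls among them. The labels do not say that a number marks a shared culture, and the deviations of same-numbered libraries correlated at -0.09 to 0.21, so the numbers were not taken to pair the libraries.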
